A study of Gallus gallus with 4 samples.

Results

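Trimethylation of lysine 9 of histone H3 (H3K9me3) is a mark of repressed chromatin. It is set by methyltransferases of the SUV39H and SETDB1 kind, is bound by heterochromatin protein 1, and can spread along the fibre from a point of recruitment into broad domains. In vertebrate genomes it lies over repeats and pericentromeres and over genes of other cell lineages, and mouse germ cells depend on it to keep mobile elements silent. Chicken cultured primordial germ cells (cPGCs), which derive from the migratory precursors of gametes in the embryonic bloodstream, were compared with embryonic stem cells of the chicken (ESCs), obtained from embryos at a very early stage. The regions described here are the H3K9me3 domains of cPGCs that were at least 15 kb and less than 50 kb wide and shared no base with any ESC domain. There were 1360 of them among the 23130 cPGC domains, and among the 47621 domains of both cell types. They are called germ cell specific domains below, which refers to these lists only: an ESC stretch without a domain is one where none was called, not one shown to lack the mark.

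Each cell type was represented by 1 immunoprecipitated library (antibody ab8898 against H3K9me3) and 1 input library, of unmodified cells kept in culture, with no treatment in the labels. With 1 library per cell type no value has a replicate error, and no difference between cPGCs and ESCs was tested. The files hold the start and end of each domain on 30 autosomes of galGal5 and no count, height or score, so the read depth behind each list is unknown, and the identity of the cells was not checked against markers. Differences in depth or in the yield of the antibody step between the cPGC and ESC libraries cannot be told apart from differences between the cells. The reference sequence of galGal5 was not used here, so no sequence of these regions is shown.

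The members were chosen by their width and by the absence of ESC overlap, so both are given as a description. In total the 1360 germ cell specific domains spanned 29797200 bp, which was 9.34% of all cPGC domain bases and 35.5% of the bases of cPGC domains without ESC overlap. Their median width was 19800 bp, with quartiles at 16800 and 24900 bp. Of the 5999 cPGC domains of 15 to 50 kb, 22.7% were germ cell specific, and the other 4639 overlapped at least 1 ESC domain and had a median width of 23100 bp. Over all widths, 43.0% of the cPGC domains (9936) had no ESC overlap. In the opposite direction, 485 of the 3416 ESC domains of 15 to 50 kb had no overlap with a cPGC domain, a share of 14.2%.

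The share of cPGC domains without ESC overlap was lower in each wider class of width. It was 30.7% between 15 and 20 kb (708 of 2303 domains), 23.1% between 20 and 25 kb (314 of 1361), 14.4% between 30 and 35 kb (87 of 604) and 7.86% between 45 and 50 kb (18 of 229). A wider domain has more bases at which it can meet an ESC domain, so the rule alone favours narrow members. At the lower limit, 61 specific domains were exactly 15000 bp wide, and 45 were 14700 bp wide and stayed outside. At the upper limit, 25 specific cPGC domains were 50 kb or wider, 3.24% of the 771 of that width, and the narrowest of these was 50100 bp. At the limit on overlap, 28 cPGC domains of 15 to 50 kb stayed outside because of 300 bp, 1 window of the caller, in an ESC domain, and 176 because of 1500 bp or less. The median overlap of the 4639 others was 11700 bp, or 48.5% of the domain.

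**Figure D1:**
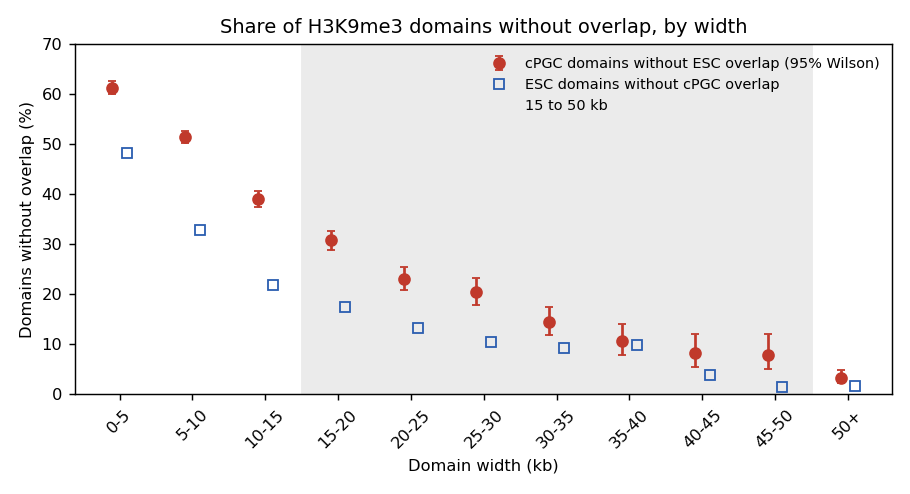
Share of domains without overlap in the other cell type (y axis, %) by domain width (x axis, kb), for cPGC domains (filled circles, bars are 95% Wilson intervals over domains, which cover counting only) and ESC domains (open squares). The grey band marks 15 to 50 kb, where the cPGC share was 30.7% in the narrowest class and 7.86% in the widest.

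The widest germ cell specific domains measured 47400 bp, and there were 4 of this width. They lay on chromosome 1 (62814901 to 62862300, and 168532801 to 168580200), on chromosome 5 (47476501 to 47523900) and on chromosome 22 (2534101 to 2581500). Next in width came 46500 bp, measured for 2 members, 1 of them on chromosome 1 (106477501 to 106524000). The nearest ESC domain was 22800 and 24300 bp away for the pair on chromosome 1, 7200 bp away on chromosome 5 and 8100 bp away on chromosome 22. Each of these 5 had another cPGC domain within 5400 bp, and for the domains at 168532801 and 106477501 it was 1800 bp away, the smallest distance that the caller leaves between domains of a cell type.

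Germ cell specific domains were found on 26 of the 30 chromosomes and were concentrated on the large ones. Chromosome 1 held 467, chromosome 2 held 361 and chromosome 3 held 182, so that these macrochromosomes carried 1010 members (74.3%) on 49.0% of the length considered. Per Mb this was 2.38 members on chromosome 1, 2.41 on chromosome 2 and 1.64 on chromosome 3. The density was 1.13 per Mb on chromosome 4 and 0.903 on chromosome 5. It was 0.562 per Mb on chromosomes 6 to 12 together and 0.641 on chromosomes 13 and up together. Members covered 5.40% of chromosome 1 and 5.28% of chromosome 2, against 1.25% of chromosomes 6 to 12.

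Most of this uneven spread was also seen in cPGC domains of 15 to 50 kb that overlapped an ESC domain. On chromosomes 1 to 3 there were 2.21 germ cell specific domains per Mb and 6.84 per Mb with ESC overlap, and on chromosomes 6 and up 0.595 and 2.96. The share of specific domains among cPGC domains of this width was 24.4% on chromosomes 1 to 3 (95% Wilson interval 23.1% to 25.7%), 22.2% on chromosomes 4 and 5 (19.3% to 25.4%), 18.1% on chromosomes 6 to 12 (15.2% to 21.5%) and 15.3% on chromosomes 13 and up (12.6% to 18.5%). These intervals cover counting of domains only, and neighbouring domains are not independent. By chromosome the share was highest on chromosome 14 (29.2%, Wilson interval 18.2% to 43.2%, with 14 members and 34 other domains). It was among the lowest on chromosomes 10 (9.62%, 4.18% to 20.6%) and 21 (9.30%, 3.68% to 21.6%), where 5 and 4 members were found. On chromosome 28 it was 5.0%, with 1 member, and chromosomes 16, 25, 30 and 33 had no member.

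By count, a smaller part of the ESC domains of the same width without cPGC overlap lay on chromosomes 1 to 3. Chromosomes 1 to 3 carried 141 of these 485 domains (29.1%), and chromosomes 6 and up carried 255 (52.6%), against 193 of the germ cell specific domains (14.2%). All cPGC domains covered 46.0% of chromosomes 1 to 3 and 21.9% of chromosomes 6 and up. All ESC domains covered 24.7% and 20.8% of them. By the rule, a domain has less room without overlap where the other cell type covers more bases. How far this bears on the contrast was not tested. The counts of ESC specific domains are not set against all ESC domains of this width on the same chromosomes. They therefore do not show where such domains were a larger share. Germ cell specific domains outnumbered the ESC specific ones on 13 chromosomes and were fewer on 12. On chromosome 1 there were 467 germ cell specific and 50 ESC specific domains, and on chromosome 14 there were 14 and 1. On chromosome 7 there were 23 and 43, and on chromosome 10 there were 5 and 19.

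**Figure D2:**
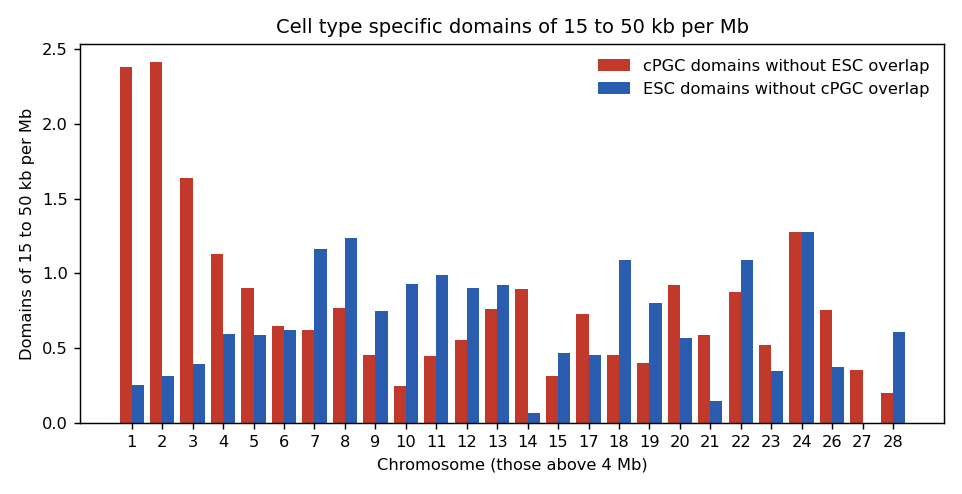
Number per Mb (y axis) of domains of 15 to 50 kb without overlap in the other cell type, in cPGCs (left bar of each pair) and ESCs (right bar), on each chromosome above 4 Mb (x axis). Chromosomes 1 and 2 had 2.38 and 2.41 germ cell specific domains per Mb, and the ESC specific bar was the higher one on 12 chromosomes, which were 7 to 13, 15, 18, 19, 22 and 28.

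Along the 5 largest chromosomes, 51 of 1167 germ cell specific domains (4.37%) lay within 5 Mb of a chromosome end. These ends make up 8.22% of the length of the 5 chromosomes, and they held 9.79% of the cPGC domains of 15 to 50 kb with ESC overlap (360 of 3678). In the first 5 Mb of chromosomes 1 to 5, in this order, ESC domains covered 38.3%, 40.7%, 24.3%, 23.0% and 28.1% of the bases. The averages of these chromosomes were 27.1%, 23.2%, 22.6%, 20.1% and 18.5%. Members can lie only where ESC domains are absent, so the low share at the ends can follow in part from the rule. Of the 173 complete stretches of 5 Mb over all chromosomes, 9 had no member, the median number was 6 and the highest was 25. The stretch with 25 members lay between 85 and 90 Mb of chromosome 1 (85000001 to 90000000), where cPGC domains covered 50.3% and ESC domains 19.4% of the bases. The next had 24 members (chromosome 1, 125000001 to 130000000).

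Germ cell specific domains were seldom isolated from other cPGC domains. The nearest cPGC domain was a median of 2400 bp away, with quartiles at 1800 and 4575 bp, and 887 of the 1360 (65.2%) had one within 3000 bp. The cPGC domains of 15 to 50 kb with ESC overlap had the same median of 2400 bp, and 66.1% had a neighbour within 3000 bp. For 260 members (19.1%) a cPGC domain lay within 3000 bp on both sides. The ESC specific domains of this width stood further apart from other domains of their own cell type, at a median of 4800 bp. Only 9 members were more than 50 kb from any other cPGC domain. The 3 most isolated were all on chromosome 3, at 83100 bp (61422001 to 61441800), 79500 bp (36620101 to 36638100) and 76200 bp (960001 to 987600).

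The neighbours of the germ cell specific domains overlapped ESC domains in a smaller share than cPGC domains at large. Counted at the 2720 sides of the members, 42.3% of the adjacent cPGC domains overlapped an ESC domain. The share was 65.0% at 9269 sides of cPGC domains of 15 to 50 kb with ESC overlap, and 57.0% among all cPGC domains. A domain with a member on either side was counted for both. Adjacent domains that are members themselves were included, and by the rule they have no ESC overlap. The rule places each member between ESC domains, and a close neighbour can lie in the same ESC gap. This difference therefore follows in part from the rule and is a description. When cPGC domains 3000 bp or less apart were read as a chain, 527 of the 1360 members (38.8%) belonged to a chain that overlapped an ESC domain. This chain count was added after the data were examined.

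The nearest ESC domain was a median of 12300 bp away from a germ cell specific domain, with quartiles at 5100 and 24900 bp. In 1107 members (81.4%) a cPGC domain was closer than any ESC domain. The rule keeps ESC domains off the members and sets no such limit for cPGC domains. The median distance to ESC domains and this share are therefore a description. At the short end, 12 members touched an ESC domain without sharing a base, and 196 (14.4%) had one within 3000 bp. At the long end, 107 members were more than 50 kb and 18 more than 100 kb from any ESC domain. The member farthest from ESC domains lay on chromosome 1 (90989101 to 91006500, 17400 bp wide), with the ESC domains on either side 156300 and 157200 bp away and another cPGC domain at 1800 bp. It was followed by a member on chromosome 1 (111743701 to 111774000) at 141000 bp and a member on chromosome 3 (53043601 to 53063400) at 135600 bp. By chromosome size the median distance was 12300 bp on chromosomes 1 to 3, 13800 bp on chromosomes 4 and 5 and 11700 bp on chromosomes 6 and up. ESC specific domains were farther from cPGC domains, at a median of 20700 bp.

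Each member lay in a gap between 2 neighbouring ESC domains, and the 1360 members occupied 1117 such gaps. The median width of these gaps was 73800 bp, compared with 38100 bp for all ESC gaps of 15 kb and over, which could hold a member. A wider gap has more room for one, so this difference follows in part from the rule. The member itself filled a median of 26.3% of its gap, and cPGC domains of any width together filled a median of 61.3%. Over all bases of these gaps, cPGC domains filled 51.4%. The member is part of this fill by the rule, and the fill of gaps without a member is not given here. A single member was present in 922 gaps, and 195 gaps held 2 or more, with 438 members between them. The largest number in a gap was 6, in 2 gaps on chromosome 1. The first (108284401 to 108556800) was 272400 bp wide and 69.9% filled by cPGC domains, and the second (128820901 to 129069900) was 249000 bp wide and 76.9% filled.

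The surroundings of the members were rich in cPGC domains. Each member was left out of its own flanks, but other members within them were counted. Bases in overlapping flanks were counted for each flank. In the 100 kb on either side, cPGC domains covered 50.4% of the bases and ESC domains 18.5%. Around cPGC domains of 15 to 50 kb with ESC overlap the same flanks had 52.8% in cPGC domains and 30.7% in ESC domains. The averages over all 30 chromosomes were 34.2% in cPGCs and 22.5% in ESCs. Pooled over all chromosomes, the cPGC coverage around members was thus slightly below that around domains with ESC overlap. The ESC coverage was lower by more and also below the genome average. On chromosomes 1 to 3 alone, the flanks of members had 54.6% in cPGC domains and 18.5% in ESC domains, with chromosome averages of 46.0% and 24.7%. On chromosomes 6 and up the flanks reached 36.8% in cPGCs and 19.5% in ESCs, with averages of 21.9% and 20.8%. Around domains with ESC overlap, cPGC domains covered 57.4% on chromosomes 1 to 3 and 41.5% on chromosomes 6 and up. ESC coverage was 9.89% in the first 10 kb from the edge of a member and 20.8% between 180000 and 190000 bp away. The positions of ESC domains were used to choose the members, so the low ESC values next to them are a description.

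**Figure D3:**
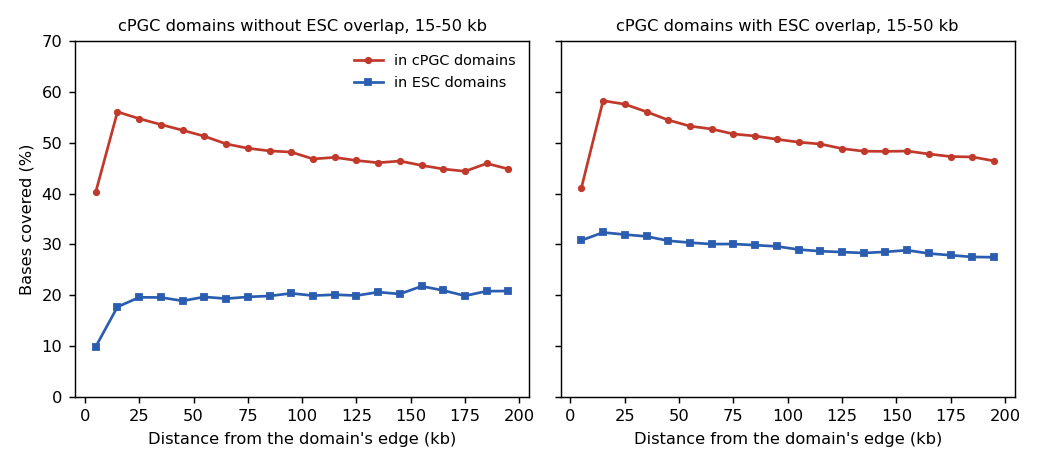
Bases covered by cPGC domains (circles) and ESC domains (squares), in %, in windows of 10 kb by distance from the edge of a domain (x axis, kb, both sides pooled), for germ cell specific domains (left) and cPGC domains of 15 to 50 kb with ESC overlap (right). The cPGC curve is slightly lower on the left, and the ESC curve is lower by more, at 9.89% in the first window against 30.8% on the right.

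The order of domains along a chromosome was counted as a description, since the rule itself sets which domains are members. Among cPGC domains of 15 to 50 kb read in order, the one after a member was again a member in 445 of 1356 cases (32.8%, 95% Wilson interval 30.4% to 35.4%). After a domain with ESC overlap, the next was a member in 911 of 4614 cases (19.7%, 18.6% to 20.9%). The same order was seen on chromosomes 1 to 3, at 34.4% and 21.2%, and on chromosomes 6 and up, at 22.8% and 15.6%, where the intervals (17.4% to 29.2% and 13.4% to 18.1%) overlapped. The intervals cover counting of domains only, and neighbouring domains are not independent, so they do not decide whether members follow each other. Members in a row can share 1 wide ESC gap, where by the rule every cPGC domain of this width is a member. No test of the order was made.

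Members 100 kb or less apart were joined into clusters. There were 97 clusters of 3 or more, with 351 members (25.8%), and 81 of the clusters lay on chromosomes 1 to 3. This share depends on the settings, at 13.2% with a cluster distance of 50000 bp, 44.4% with 200000 bp, 9.82% with a lower width limit of 20 kb and 13.5% with domains 3000 bp or less apart joined. A further 172 clusters were pairs, and 665 members (48.9%) were single. Within the span of the clusters of 3 or more, cPGC domains covered a median of 74.1% and ESC domains a median of 5.79%, and 20 clusters had no ESC domain in their span. Members are part of each span, and by the rule they are all cPGC and hold no ESC base, so these values are a description. The median span was 158700 bp. The cPGC domains with ESC overlap, which were more numerous, formed larger clusters, of up to 23 domains, with 65.2% of them in clusters of 3 or more.

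Of the clusters, 1 had 7 members and 5 had 6 members, and the 2 of these 5 with most bases in members are described with it. The cluster with most members lay on chromosome 2 (135207601 to 135488700), with 7 members of 15000 to 33000 bp. Together they filled 52.9% of its 281100 bp. All cPGC domains covered 77.6% of it, and 5 ESC domains covered 14.5%. One of its members (135300001 to 135323700) was only 300 bp from an ESC domain, while the one at 135348901 to 135372600 was 49200 bp from the nearest. Another lay on chromosome 1 (128833201 to 129057900), with 6 members of 45600, 38100, 22800, 15000, 30000 and 22500 bp in order of position. Members filled 77.4% of its 224700 bp, the distances between them were 5100 to 16800 bp, and no ESC domain was present. Its member deepest inside (128938501 to 128961300) was 108600 bp from the nearest ESC domain. The last of these clusters, also with 6 members, lay on chromosome 1 (171489001 to 171833100), where cPGC domains covered 73.9% and 6 ESC domains 7.24%. Thus the cluster at 128833201 had no ESC domain in its span, whereas the other 2 did. Of the 3 further clusters of 6 members, all on chromosome 1, the one at 108288301 to 108522600 also had no ESC domain, with 72.1% of its span in cPGC domains, and those at 121802701 and 87906001 held 5 and 2 ESC domains.

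**Figure D4:**
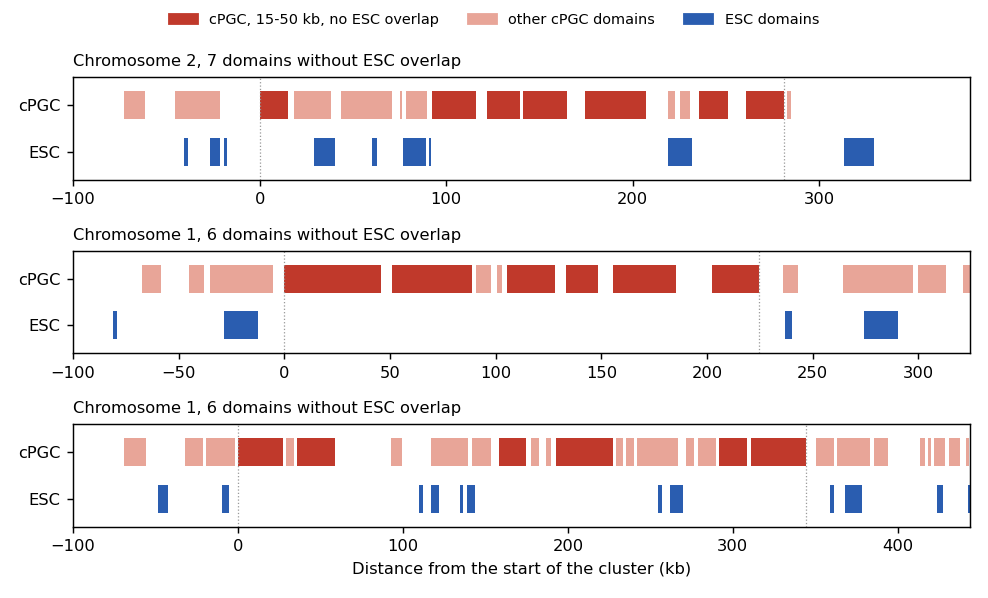
Domains of cPGCs (upper track) and ESCs (lower track) in the cluster of 7 members and in the 2 clusters of 6 members with most bases in members, out of 5 with 6, by distance from the start of the cluster (x axis, kb), with 100 kb on either side. Dark red marks germ cell specific domains of 15 to 50 kb, light red other cPGC domains and blue ESC domains, and dotted lines mark the ends of the cluster. The middle cluster, with 6 members in 224700 bp, has no ESC domain between its ends.

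Gene loci were taken from the study's gene table, in which a locus runs from 500 bp before the transcription start to the transcription end. The 1999 loci used here are the first part of that table, and only 28 of them lie on chromosomes 1 to 3, where most members are. Members overlapped 23 of the 1999 loci (1.15%), none of them among those 28, and 20 of the 193 members on chromosomes 6 and up lay over a listed locus. Domains of any width overlapped 578 loci in cPGCs (28.9%) and 755 in ESCs (37.8%), so loci under members were a small part of the covered ones. ESC specific domains of the same width overlapped 32 loci, and cPGC domains of this width with ESC overlap 162. The 23 loci were long, with a median of 23181 bp against 11615 bp for all, and long loci are more easily met. Their median coverage was 77.6% in cPGCs and 0% in ESCs. Since the part under a member is free of ESC domains by the rule, coverage of these loci is a description. Over all 1999 loci, 15.8% of the bases were covered in cPGCs and 16.7% in ESCs.

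Members covered 6 loci at 75% or more, and none of these 6 had any ESC domain. For the loci covered at 100% the absence of ESC domains is fixed by the rule. *ESPN* on chromosome 21 (588402 to 595922) was covered at 100% by a member of 26700 bp that reached 15701 bp beyond its lower end. It encodes espin, which bundles actin in the stereocilia of mammalian hair cells. *CTSE*, the aspartic protease cathepsin E, on chromosome 26 (2355279 to 2359220) was covered at 100% by a member of 22800 bp. *HTR4*, a serotonin receptor coupled to G proteins, on chromosome 13 (8257577 to 8273761) was covered at 100% by a member of 34200 bp, and here an ESC domain lay 1800 bp below the member. *ZMAT4*, a zinc finger gene on chromosome 22 (2545784 to 2566226), lay wholly within a member of 47400 bp, one of the widest. The transcription start and end of these 4 loci both lie inside the member, whatever the strand.

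*HSF4*, a heat shock transcription factor needed in the mouse lens, on chromosome 11 (2520936 to 2536119) was covered at 84.4% by a member of 18900 bp. The same member reached into the neighbouring *DNAAF1*, an assembly factor of ciliary dynein arms, and covered 13.7% of it. The nearest ESC domain was 48900 bp from this member. *NPPA*, the cardiac hormone atrial natriuretic peptide, on chromosome 21 (5576343 to 5579487) was covered at 78.2% by a member of 15600 bp, with the nearest ESC domain 61500 bp away. The 4 fully covered loci thus lay inside members that extended past them on both sides, and *HSF4* and *NPPA* each had an end outside.

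The next loci in order of coverage by members were covered at 50 to 75%. *NR5A1*, the nuclear receptor steroidogenic factor 1 of gonads and adrenal glands, on chromosome 17 (9914203 to 9930543) was covered at 69.1% by a member of 22500 bp. All cPGC domains covered 81.6% of the locus and ESC domains 12.5%, where a single domain of 6000 bp reached it. That member also covered a smaller part, 42.8%, of the adjacent *ADGRD2*, an adhesion receptor coupled to G proteins, which had no ESC domain. On the side of *ADGRD2* the next cPGC domain was 693300 bp away. *CRHR1*, the receptor of corticotropin releasing hormone, on chromosome 27 (2398895 to 2423289) was covered at 67.2% by a member of 17700 bp, and at 68.0% in cPGCs and 0% in ESCs in all. *MYO7B*, an unconventional myosin of microvilli on chromosome 9, was covered at 55.4% by a member, and at 58.0% in cPGCs and 15.1% in ESCs in all. *PIGQ*, of the glycosylphosphatidylinositol anchor pathway, on chromosome 14 held a whole member of 16800 bp, 54.8% of the locus, and had no ESC domain.

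In the loci covered by members at 30 to 50%, other than *ADGRD2*, further cPGC domains added to the coverage. *KLHL6*, a kelch protein known from B cells, was covered at 49.9% by a member, with 90.5% in all cPGC domains and 13.7% in ESC domains. *MYL10*, a regulatory myosin light chain, was covered at 77.6% in cPGCs, and *CFAP77*, a protein of cilia, at 82.9% in cPGCs, and neither had an ESC domain. In total, 9 of the 23 had cPGC coverage of at least 75% with ESC coverage of no more than 10%, which holds for 37 of all 1999 loci (1.85%). The rule places a cPGC domain without ESC bases in each of the 23, so nothing is read from this share.

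The long loci held a member as a small part of their length. *PCDH15*, a cadherin of the stereocilia tip link, on chromosome 6 (6329704 to 6628545) held a member of 20100 bp, 6.73% of the locus. In cPGCs 12 domains covered 37.1% of it, and in ESCs 14 domains covered 38.1%. *NELL1*, a secreted protein with roles in bone formation, on chromosome 5 (2200559 to 2481132) was the only locus of the 23 on chromosomes 1 to 5, with a member of 15900 bp and 55.3% coverage in cPGCs against 17.4% in ESCs. *EBF1*, a transcription factor of early B cells, on chromosome 13 (10683421 to 10944830) had 29.2% of its bases in cPGC domains and 16.2% in ESC domains. The gene of axonemal dynein heavy chain 9 (ENSGALG00000001111) on chromosome 18 had 93.0% in cPGC domains and 45.9% in ESC domains. *UNC5D*, a netrin receptor of axon guidance, on chromosome 22 had 24.0% in cPGC domains and 1.84% in ESC domains. *GRIA1*, a subunit of AMPA glutamate receptors, had 77.3% in cPGC domains and 49.6% in ESC domains, and *GNAO1*, a G protein subunit abundant in brain, had 43.3% in cPGC domains and 50.7% in ESC domains. *PCDH15* and *GNAO1* were the 2 loci of the 23 with more ESC than cPGC coverage, so a germ cell specific domain can lie in a gene that ESC domains cover as much or more.

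**Figure D5:**
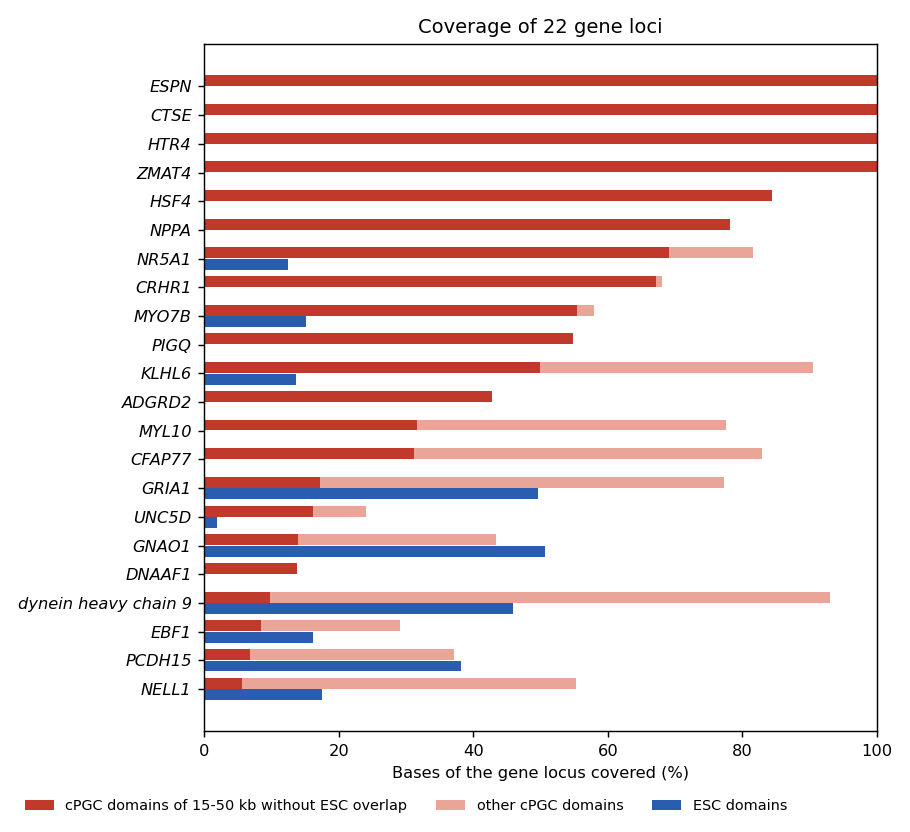
Bases of 22 of the 23 gene loci covered (x axis, %), in order of coverage by germ cell specific domains of 15 to 50 kb. The upper bar of each pair shows cPGC domains, dark red for those specific domains and light red for other cPGC domains, and the lower blue bar shows ESC domains. The first 6 loci, from ESPN to NPPA, have no blue bar, which the rule fixes for those wholly covered by a member.

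Groups of genes were set by words in the gene descriptions and counted over the 1999 loci. Words for membrane receptors and adhesion occurred in 179 loci (8.95%), and 7 of these were overlapped by members, which is 30.4% of the 23. A cPGC domain of any width overlapped 74 of the 179, and 578 of all 1999 loci. The 7 loci under members were *HTR4*, *CRHR1*, *ADGRD2*, *UNC5D*, *GRIA1* and *PCDH15*, together with *NR5A1*, whose description holds the word receptor although it is a nuclear protein. Long loci are more easily met, and *PCDH15*, *UNC5D* and *GRIA1* span 298842, 130267 and 108372 bp, so no enrichment is read from the 30.4%. Words for transcription regulators occurred in 102 loci, of which 32 had a cPGC domain of any width and 3 were overlapped by members (*HSF4*, *NR5A1*, *ZMAT4*). Words for muscle and contractile proteins occurred in 87 loci, of which 27 had a cPGC domain and 2 were overlapped by members (*MYL10*, *MYO7B*). Of 58 loci with words for secreted signals and matrix, 35 had a cPGC domain and 1 was overlapped by a member (*CRHR1*, by the word hormone). None of the 103 loci of channels and transporters and none of the 91 of RNA and protein housekeeping were overlapped by members, while 42 and 8 of these had a cPGC domain of any width. Members overlapped only 1.15% of all 1999 loci, so nothing is read from their absence in the channel, transporter and housekeeping loci. The gene table was shortened, so these counts were not tested. Of the 58 genes that the study lists for pluripotency, germ line, HOX clusters and chromatin modifiers, 4 had a locus among the 1999, and none was overlapped. The nearest member was 1410125 bp from *HOXB4*, 1357335 bp from *HOXB9*, 4111775 bp from *KLF2* and 4484795 bp from *PIWIL1*. Of these 4, *KLF2* alone had a cPGC domain, which lay over 64.5% of the locus, and *PIWIL1* alone had ESC domains, over 87.3%. The paper reports robust expression of *KLF2* in cPGCs and in ESCs, so its coverage is not read as silencing.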

How the data were processed

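H3K9me3 ChIP-seq was analysed from 1 immunoprecipitated and 1 input library each of cPGCs and ESCs. The authors aligned reads to galGal5 with Bowtie2, kept proper pairs with a mapping quality of at least 30 to leave out ambiguous reads, called MACS2 broad peaks and SICER islands (window 300 bp, gap 1500 bp) against input, and kept islands by false-discovery rate or by overlap with a peak, on main autosomal scaffolds. The deposited values are domain positions counted from 0, with no signal; 1 was added for printing. Per the labels, bcl2fastq 2.0 and FastQC 0.11.3 were used upstream. Depth per sample is unknown, so no precision from reads is given.

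Overlaps, distances (between facing ends), clusters and coverage were computed with Python 3.11.15, numpy 2.4.6 and pandas 2.3.3, and figures with matplotlib 3.10.9. The scripts were first tested on simulated domains. Chromosome length was taken as the end of the last cPGC or ESC domain. Gene loci come from the study's gene table; its coverage and expression values were not used. With 1 library per cell type, no test was made. Wilson intervals of 95% count domains or loci.

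The members and lists were chosen with earlier results of these data known. Regions named are the 5 widest members, the 3 clusters with most members (ties by bases in members) and the 3 members farthest from ESC and from cPGC domains. Genes named are loci covered at 75% or more by members, listed study genes, and the 5 longest loci holding a whole member; other overlapped loci were named after their values were seen, and 1 is not reported here. Alternatives changed the width limit, the overlap or distance allowed, the ESC or cPGC domains counted, the joining of domains (3000 bp), the cluster distance, the chromosomes and the locus thresholds.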

Additional observations from a re-analysis of the deposited data

How the results depend on the processing

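Of 36 alternative settings over 8 results, 18 left the value within its limits (counts within 1.5 times, shares within the Wilson interval, medians within a binomial interval of 95%). The number of members was 2108 with a lower width limit of 12 kb and 652 with 20 kb. With 20 kb, the share of cPGC domains without ESC overlap was 17.6%, the share of members in clusters of 3 or more 9.82% and the overlapped loci 12. The share without ESC overlap was 27.8% when up to 10% of the bases were allowed in ESC domains, 19.8% at 3000 bp or more from ESC domains, 27.1% with ESC domains of at least 3000 bp only, 23.8% on chromosomes 1 to 8 and 15.3% on the others. With domains 3000 bp or less apart joined, 69.7% of members lay on chromosomes 1 to 3, 13.5% were in clusters, and the median distances were 14700 bp to ESC and 6600 bp to cPGC domains. Joining put 460 of the 1360 members into domains of 50 kb or more and left 473 as they were. The number of members after joining was 1033, within the limit for counts, but the set changed. Of the 1033, 727 held a reported member, and 750 of the 1360 reported members lay inside a member after joining. Clusters held 13.2% of members at a distance of 50000 bp and 44.4% at 200000 bp. With ESC domains of at least 3000 bp only, the median distance to ESC domains was 15300 bp. At 50% of the locus, 10 loci were covered by members. No paired analysis was possible because each group has 1 library and no test was made. The missing replicates and the unknown depth limit every statement to these 2 lists, and whether a member lacks the mark in ESCs was not tested.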

Other observations

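The ESC gaps that held germ cell specific domains differed in how far cPGC domains filled them. The widest, on chromosome 2 (128433901 to 129036600), spanned 602700 bp, held 1 member and was filled at 21.6%. A gap of 330900 bp on chromosome 1 (90832801 to 91163700) held 5 members and 21 cPGC domains in all and was filled at 56.9%. Of 8 gaps with 4 or more members, 7 lay on chromosome 1 and 1 on chromosome 2 (135299701 to 135426300), where 4 cPGC domains filled 77.3% of 126600 bp. The ESC specific domains of 15 to 50 kb also fell into gaps of cPGC domains. They lay in 391 gaps with a median width of 119700 bp. ESC domains filled a median of 34.0% of these gaps. In the ESC gaps around germ cell specific domains, cPGC domains filled a median of 61.3%. Over all gap bases, the fill was 27.2% by ESC domains and 51.4% by cPGC domains. The chosen domain is part of the fill by the rule. Over all chromosomes, cPGC domains covered 34.2% and ESC domains 22.5% of the bases. Chromosomes 1 to 3 held 74.3% of the germ cell specific and 29.1% of the ESC specific domains. The 29.1% is not set against all ESC domains of this width. These contrasts are therefore a description.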
